A study of Mus musculus with 6 samples.

Results

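Fatty acid synthesis and desaturation were followed through 10 genes: Srebf1, Acly, Acaca, Fasn, Elovl5, Elovl6, Scd1, Scd2, Fads1 and Fads2. They were taken by symbol from the deposited table of raw counts, where each matched 1 of 35275 rows. The RNA came from NIH3T3 cells, an immortal line of mouse embryo fibroblasts. It was measured by RNA-seq in 3 libraries labelled NgBR overexpression and 3 libraries of NIH3T3 cells whose genotype is labelled wild type, for which the labels name no empty-vector control. The NgBR cells were a stable line made by transfection with pIRES-NgBR carrying an HA tag and kept under G418 selection, and both kinds of cell grew in DMEM with antibiotics and 10% calf serum. NgBR, the Nogo-B receptor, is the product of Nus1 and a subunit of the enzyme that makes dolichol. The labels do not say whether the stable line was 1 clone or a pool, nor whether each library had a culture of its own. The p-values therefore describe only how far these libraries scatter, and that scatter may be technical.

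Cells build fatty acids from citrate. ATP citrate lyase (Acly) releases acetyl-CoA in the cytosol, acetyl-CoA carboxylase (Acaca) turns it into malonyl-CoA, and fatty acid synthase (Fasn) joins these units into palmitate. ELOVL enzymes then lengthen the chain, stearoyl-CoA desaturases (Scd1, Scd2) place the first double bond of monounsaturated fatty acids, and the FADS enzymes desaturate polyunsaturated ones. SREBP-1, encoded by Srebf1, is a membrane-bound transcription factor that is cut free when needed and induces most of these genes.

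Total counts ran from 7369961 to 10358381 in the NgBR-labelled libraries and from 29515072 to 35511769 in the wild-type libraries, so that depth ran with the groups. The 10 genes were well covered all the same, with between 435 and 36543 counts per library, and each passed the filter on low counts with reads in both groups. Nus1 had 184, 185 and 165 CPM (counts scaled to a common library size with TMM factors) in NgBR-labelled libraries 1 to 3, against 212, 187 and 233 CPM in wild-type libraries 1 to 3. Counts at mouse Nus1 thus were not higher under the label (log2 fold change -0.24, edgeR quasi-likelihood adjusted p = 0.786). Whether reads of the transgene are counted at that gene was not tested, so the directions below belong to the libraries labelled NgBR overexpression, called NgBR-labelled here. Libraries numbered 2 of both groups stood apart on the second principal component, which took 28.6% of the variance. Fibroblast markers were high, with a summed level of the 8 markers between 20850 and 31340 CPM in NgBR-labelled libraries and between 19730 and 23600 CPM in wild-type libraries. Of 9 adipocyte markers, Cidec had 0 counts in all 6 libraries and Lipe was the most abundant at up to 15.0 CPM, while their summed level was between 6.60 and 17.4 CPM in NgBR-labelled and between 7.11 and 13.8 CPM in wild-type libraries. Lists of epithelial, endothelial and leukocyte markers summed to at most 3.76 CPM in any library.

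None of the 10 genes passed the test. With Benjamini-Hochberg adjustment over 12651 genes, the quasi-likelihood test of edgeR called 0 of 10 at an adjusted p under 0.05, against 3.39% of all genes tested (2.04% higher and 1.35% lower), and DESeq2 and limma-voom called 0 of 10 too. In RNA from bulk cultures, fewer cells expressing a gene and less of its RNA per cell cannot be told apart. At an unadjusted p under 0.05 there was 1 of the 10, Scd2, against 11.4% of all genes in either direction and 6.3% in the higher one. The log2 fold changes of NgBR-labelled over wild-type libraries ranged between 0.02 for Fasn and 1.04 for Scd2, with a median of 0.23, and 10 of 10 were positive against 48.7% of all genes, whose median was -0.01. That shared sign depended on the libraries fitted and on the method. Without both libraries numbered 2, 5 genes were positive and 5 negative, with a median of -0.01. Without NgBR-labelled library 1 alone, 7 were positive and 3 negative, and the same counts held without NgBR-labelled library 2 alone. With limma-voom 9 were positive and 1 negative, and with DESeq2 10 were positive. The 95% intervals of 7 genes excluded a 2-fold change in either direction, and those of Scd1, Scd2 and Fads1 did not.

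**Figure D1:**
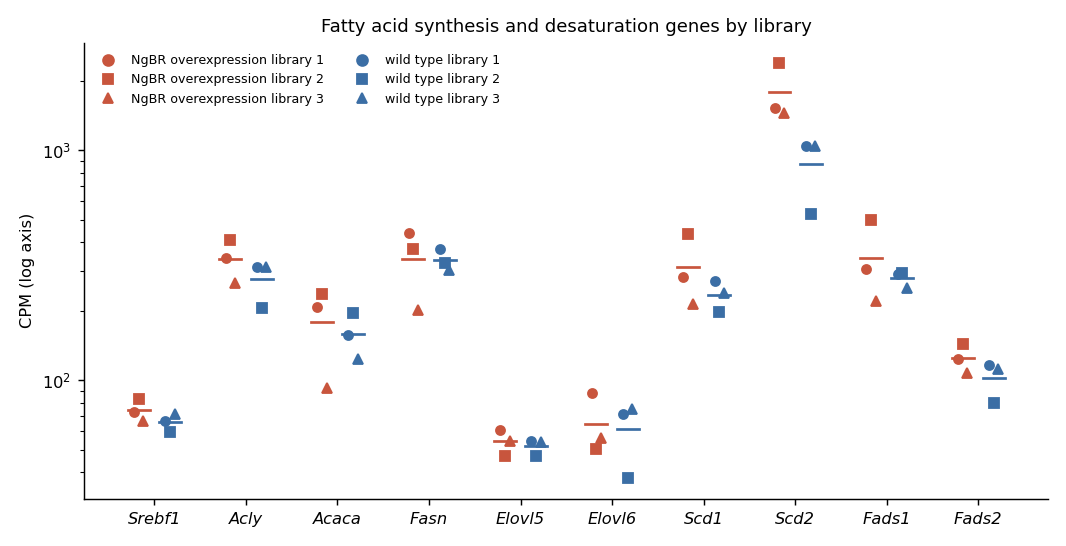
CPM of the 10 genes on a log axis, by library, with NgBR-labelled libraries in red and wild-type libraries in blue, horizontal bars at the group means and one symbol shape per library number. Scd2 is the gene whose groups do not overlap, between 1447 and 2386 CPM in NgBR-labelled libraries and between 526 and 1046 CPM in wild-type libraries.

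Levels were compared between genes per length, as TPM computed from the counts and the merged exonic length of each gene. Scd2 was the most abundant of the 10 in all 6 libraries, at 1268 ± 547 TPM in NgBR-labelled and 591 ± 162 TPM in wild-type libraries (SD, n = 3 each). Fads1, Acly and Scd1 took ranks 2 to 4 in every library and changed places among themselves. Their means were 277 ± 152, 246 ± 84.2 and 247 ± 123 TPM in NgBR-labelled libraries and 219 ± 32.0, 196 ± 27.3 and 181 ± 10.9 TPM in wild-type libraries, and by this length the ranges of neighbours in the order overlapped in each group. Fads2 and Fasn held ranks 5 and 6, with 145 ± 40.1 and 118 ± 48.3 TPM in NgBR-labelled libraries and 117 ± 13.0 and 115 ± 12.6 TPM in wild-type libraries. Elovl5, Srebf1, Elovl6 and Acaca lay lowest, between 18.4 and 63.8 TPM. With the length of the longest transcript in place of merged exons these 4 groups of ranks were the same, but the order within ranks 2 to 4 was fixed as Fads1, Acly and Scd1 in all 6 libraries. Their means by that length were 291, 221 and 188 TPM in NgBR-labelled libraries and 230, 176 and 138 TPM in wild-type libraries, so that the order of these 3 genes depends on the length used. The mean of Acaca was 55.5 TPM in NgBR-labelled and 48.2 TPM in wild-type libraries by the longest transcript. By merged exons it was 40.9 TPM in NgBR-labelled and 35.6 TPM in wild-type libraries.

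Srebf1, the regulator, did not pass the test, and its interval was the narrowest of the 10. The gene (mm10 chr11:60199089-60222581, minus strand) had 72.8, 82.7 and 66.8 CPM in NgBR-labelled libraries 1 to 3, against 66.6, 59.6 and 71.3 CPM in wild-type libraries 1 to 3. The groups overlapped, with wild-type library 3 above NgBR-labelled library 3. The log2 fold change was 0.17 (SE 0.20, 95% interval -0.29 to 0.63, edgeR adjusted p = 0.865), which bounds the change between 0.820-fold and 1.55-fold. The gene makes SREBP-1a and SREBP-1c from separate starts, and gene-level counts add their transcripts together. An exon of Rai1 on the opposite strand overlaps 1.93% of its exonic bases, and no source used here gives the strand setting of the counting. RefSeq lists 3 starts of Srebf1 on build GRCm38.p6, and the 250 bases before the most downstream one (chr11:60210472-60210721, minus strand) are shown with those before Fasn (chr11:120824548-120824797, minus strand), a well-known target of SREBP-1. The Srebf1 window is shown because counts of that gene sum over its starts, and the Fasn window because it held the most CCAAT boxes of the 9. Capitals mark CCAAT boxes on either strand, the element bound by NF-Y beside which SREBP sites often lie.
Srebf1: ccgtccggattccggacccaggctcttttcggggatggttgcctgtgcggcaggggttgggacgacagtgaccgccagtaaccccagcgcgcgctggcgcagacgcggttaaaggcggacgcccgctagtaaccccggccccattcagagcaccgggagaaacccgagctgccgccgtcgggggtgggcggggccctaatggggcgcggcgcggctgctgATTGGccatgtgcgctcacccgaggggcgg
Fasn: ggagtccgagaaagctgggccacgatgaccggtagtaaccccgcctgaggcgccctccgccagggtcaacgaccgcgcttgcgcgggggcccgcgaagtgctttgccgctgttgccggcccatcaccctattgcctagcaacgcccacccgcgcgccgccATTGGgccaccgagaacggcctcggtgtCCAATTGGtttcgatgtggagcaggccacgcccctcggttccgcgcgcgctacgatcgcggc
In the Srebf1 window the reverse form ATTGG began 30 bases before the start. In the Fasn window 3 boxes began 90, 62 and 59 bases before it, and the last 2 overlap on opposite strands. CCAAT or its reverse complement was found in 33.85% of the 32851 promoter windows of this length. The palindromic E-box CACGTG (6.02% of windows) was found in the Elovl5 window alone among the 9 windows of the 7 genes listed. The sterol element type TCACNCCAC (1.05%) and the LXR response element of DR4 type (0.02%) were searched on both strands and matched in none of the 9. In 5 of the 9 windows none of the motifs searched was found, the CCAAT box included. These were the windows of Acaca, Acly, Elovl6 and Fads2 and of the middle one of the 3 Srebf1 starts. The windows shown, which both hold the box, thus do not stand for all 9. For the LXR response element only an exact repeat was searched, with no mismatch allowed in either copy. Elements of this type that differ from that repeat would not be found. Whether any window holds such an element, those shown included, was not tested. The Acaca window (chr11:84195188-84195437, plus strand) lies inside the gene, whose start in GENCODE M21 is 84129672. Bases before that start were not searched. Scd1, Scd2 and Fads1 had no entry.

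The cytosolic chain of synthesis, Acly, Acaca and Fasn, showed changes smaller than the spread between libraries. Acly (chr11:100476353-100528000, minus strand) had 340, 408 and 264 CPM in NgBR-labelled libraries 1 to 3 and 310, 207 and 312 CPM in wild-type libraries 1 to 3. Its log2 fold change was 0.29 (SE 0.275, 95% interval -0.33 to 0.91, edgeR adjusted p = 0.814), and it was -0.04 without both libraries numbered 2. Acaca (chr11:84129672-84401651, plus strand) had 208, 237 and 92.9 CPM in NgBR-labelled libraries 1 to 3, against 157, 196 and 124 CPM in wild-type libraries 1 to 3. NgBR-labelled library 3 was the lowest of all 6 and library 2 of the same label the highest, a 95% interval of -0.62 to 0.97 around a log2 change of 0.18 (edgeR adjusted p = 0.935). Fasn (chr11:120805846-120824547, minus strand) had 436, 373 and 203 CPM in NgBR-labelled libraries 1 to 3 and 372, 325 and 300.4 CPM in wild-type libraries 1 to 3. Here too NgBR-labelled library 3 was lowest, while library 1 of that label was highest. NgBR-labelled libraries averaged 337 ± 121 CPM and wild-type libraries 333 ± 36.5 CPM (SD, n = 3 each), a log2 change of 0.02 (SE 0.31, 95% interval -0.68 to 0.72, edgeR adjusted p = 0.994).

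Acaca and Fasn have the longest transcripts of the 10 genes, of 9513 and 10050 bases. Levels also varied with exonic length. Across genes, which are not independent replicates, Spearman's rho between exonic length and a library's log2 departure from the 6-library average was 0.07, 0.35 and -0.47 in NgBR-labelled libraries 1 to 3 and -0.23, 0.24 and -0.30 in wild-type libraries 1 to 3. Relative to the wild-type mean of log2 CPM, Acaca stood at 0.42, 0.60 and -0.75 in NgBR-labelled libraries 1 to 3 and at 0.01, 0.33 and -0.33 in wild-type libraries 1 to 3. It was lowest in the libraries numbered 3, where rho was most negative, and highest in NgBR-labelled library 2, where rho was highest. Fasn, on the same scale, stood at 0.395, 0.171 and -0.709 in NgBR-labelled libraries 1 to 3. In wild-type libraries 1 to 3 it stood at 0.168, -0.027 and -0.141. Fasn too was lowest in library 3 of each group, but it was highest in library 1 of each group and not in library 2. The part of exonic length in these values was not tested beyond the offsets that follow. With offsets for exonic length and GC content fitted in each library, the log2 fold changes were 0.12 for Acaca and -0.01 for Fasn. A processed pseudogene, Gm5182, carries part of the Acaca sequence: 30.43% of the 50-base words of Acaca transcripts also occur in transcripts of other genes, against 0 for Fasn, Acly, Elovl5 and Fads1. Counts of Acaca are therefore uncertain, but the 30.43% does not measure by how much. It is a share of 17201 words pooled over all Acaca transcripts, the longest of which has 9513 bases. The share within a single transcript may be larger and was not tested. Gm5182 was not analysed here.

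**Figure D2:**
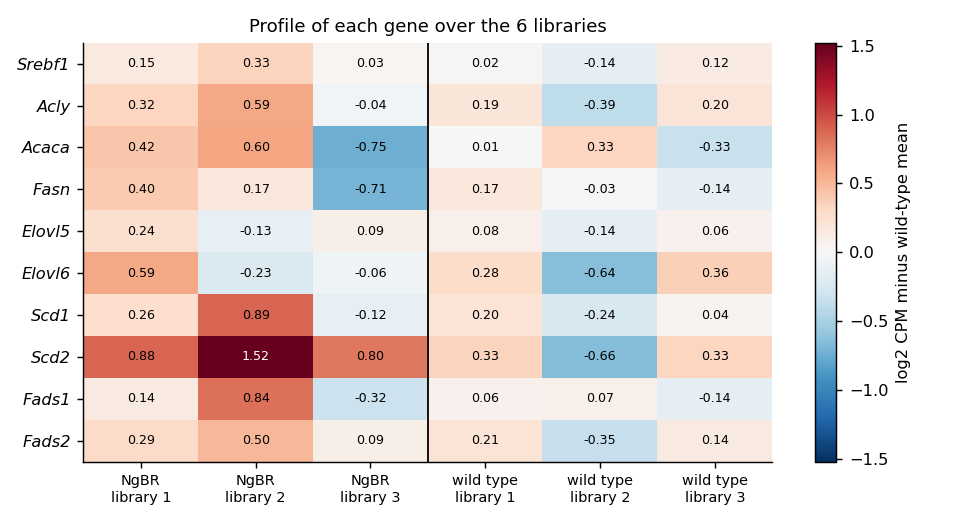
Log2 CPM of each gene minus its wild-type mean, as colour and number, for NgBR-labelled libraries (left of the line) and wild-type libraries (right). NgBR-labelled library 2 holds the highest NgBR-labelled value of 7 of the 10 genes, and wild-type library 2 the lowest wild-type value of 7.

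Acacb encodes the second acetyl-CoA carboxylase, an enzyme of the mitochondrial outer membrane whose malonyl-CoA restrains fatty acid oxidation. It was named after its values were seen, as the uncalled gene of the surrounding pathway with the lowest adjusted p. Acacb had 15.0, 26.1 and 12.04 CPM in NgBR-labelled libraries 1 to 3, against 6.47, 7.95 and 5.84 CPM in wild-type libraries 1 to 3. All 3 NgBR-labelled libraries lay above the wild-type ones, which 9.21% of all genes tested did in this direction. The log2 fold change was 1.39 (SE 0.33, 95% interval 0.65 to 2.13), with an edgeR adjusted p = 0.0567 that misses the threshold. Under the alternatives that adjusted p lay between 0.0043 for DESeq2 and 0.197 without 1 library, and it was 0.0362 without both libraries numbered 2, with a log2 change of 1.13. Per length, Acaca made up 88.7%, 83.6% and 81.3% of the 2 carboxylase transcripts in NgBR-labelled libraries 1 to 3 and 93.2%, 93.3% and 92.3% in wild-type libraries 1 to 3. The mean was 84.5 ± 3.76% in NgBR-labelled and 92.9 ± 0.551% in wild-type libraries, a difference of -8.37 percentage points. An exact two-sided permutation test gave p = 0.1, which is the smallest that 3 against 3 libraries allow, and 0.25 adjusted over the 5 shares compared.

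Elongation genes of the set did not move beyond their spread. Elovl5 (chr9:77917364-77984519, plus strand), which lengthens polyunsaturated chains, had 61.0, 47.1 and 54.7 CPM in NgBR-labelled libraries 1 to 3 and 54.3, 46.8 and 53.7 CPM in wild-type libraries 1 to 3. Its interval was among the narrowest of the 10, with a log2 change of 0.07 (SE 0.21, 95% interval -0.39 to 0.54, edgeR adjusted p = 0.959). Elovl6 (chr3:129532355-129638495, plus strand), which extends palmitate to stearate, had 88.3, 50.2 and 56.2 CPM in NgBR-labelled libraries 1 to 3, against 71.4, 37.5 and 75.3 CPM in wild-type libraries 1 to 3. Both libraries numbered 2 were the lowest of their groups, and the log2 fold change was 0.08 (SE 0.32, 95% interval -0.65 to 0.81, edgeR adjusted p = 0.975). Elovl6 made up 39.0 ± 4.501% of the pair per length in NgBR-labelled libraries and 38.6 ± 7.06% in wild-type libraries (exact permutation p = 0.9, SD, n = 3 each).

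Scd2 was the gene of the set with the largest difference. Scd2 (chr19:44293674-44306864, plus strand), the stearoyl-CoA desaturase that is prominent in mouse brain and in fibroblasts, had 1531, 2386 and 1447 CPM in NgBR-labelled libraries 1 to 3. It had 1046, 526 and 1041 CPM in wild-type libraries 1 to 3. Every NgBR-labelled library lay above every wild-type one, which 9.21% of all genes tested did in this direction. NgBR-labelled libraries averaged 1788 ± 519 CPM and wild-type libraries 871 ± 299 CPM (SD, n = 3 each), a log2 change of 1.04 (SE 0.37, 95% interval 0.20 to 1.87) with an unadjusted p of 0.0206 in the edgeR quasi-likelihood test. After adjustment over all genes p was 0.269, and it lay between 0.0543 (DESeq2) and 0.467 over the alternatives, so that the call was not made in any. Much of the difference lay between the libraries numbered 2. Log2 ratios of NgBR-labelled over wild-type CPM were 0.55, 2.18 and 0.47 for numbers 1, 2 and 3, although libraries of the same number were not shown to be paired. The log2 fold change of Scd2 was 0.51 (edgeR adjusted p = 0.323) without both libraries numbered 2. Scd2 alone made up 49.6% of the summed CPM of the 10 genes in NgBR-labelled libraries, as the mean of 3, and 35.0% in wild-type libraries.

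Scd1 (chr19:44394455-44407879, minus strand), the isoform best known from liver and fat, lies on the same chromosome as Scd2 and had 280, 433 and 215 CPM in NgBR-labelled libraries 1 to 3. Wild-type libraries 1 to 3 had 269, 198 and 240 CPM. The groups overlapped, with NgBR-labelled library 3 below wild-type libraries 1 and 3. Its log2 fold change was 0.39 (SE 0.30, 95% interval -0.28 to 1.07, edgeR adjusted p = 0.743), and -0.04 without both libraries numbered 2.

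How alike the 2 desaturases are in sequence bears on how far reads can tell them apart. Their coding sequences in GENCODE M21 were identical at 962 of 1065 aligned positions (90.3%), with a longest identical run of 147 bases. The closest and the most different windows of 90 bases follow, the closest from coding position 532 of Scd2 and 523 of Scd1, the most different from 84 of Scd2 and 75 of Scd1. Positions are counted from the A of the start codon, and capitals mark bases that differ between the genes.
Scd2 closest: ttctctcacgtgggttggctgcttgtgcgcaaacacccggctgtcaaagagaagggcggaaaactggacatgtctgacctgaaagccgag
Scd1 closest: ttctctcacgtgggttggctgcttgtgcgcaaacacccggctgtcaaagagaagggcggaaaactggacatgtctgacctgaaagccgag
Scd2 most different: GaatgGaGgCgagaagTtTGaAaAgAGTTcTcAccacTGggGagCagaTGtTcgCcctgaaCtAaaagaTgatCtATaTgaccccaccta
Scd1 most different: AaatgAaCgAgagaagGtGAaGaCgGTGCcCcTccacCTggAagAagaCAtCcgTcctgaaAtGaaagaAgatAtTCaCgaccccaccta
The closest pair differs at 0 bases and the other at 30. Of the 50-base words of the whole transcripts, which hold long untranslated parts, 3.97% of Scd2 and 4.56% of Scd1 occur in another gene, mostly in each other and in Scd3. A read that lies wholly within an identical stretch cannot be placed, and most of the transcript is not shared. Read length did not enter this comparison, so the share of reads that cannot be placed was not tested.

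Per length, Scd1 made up a smaller share of the pair in every NgBR-labelled library, at 16.96%, 16.85% and 14.25% in libraries 1 to 3, against 22.3%, 29.6% and 20.5% in wild-type libraries 1 to 3. The mean was 16.02 ± 1.53% in NgBR-labelled and 24.1 ± 4.84% in wild-type libraries (SD, n = 3 each), a difference of -8.10 points with an exact permutation p = 0.1, the smallest possible, and 0.25 adjusted over the 5 shares. The ratio of Scd2 to Scd1 was 4.89, 4.93 and 6.02 in NgBR-labelled libraries 1 to 3 and 3.48, 2.38 and 3.89 in wild-type libraries 1 to 3. All 3 NgBR-labelled ratios lay above all 3 wild-type ones. Leaving out each library in turn kept the difference in share between -9.94 and -5.37 points. Scd3, a skin isoform named after its values were seen, stayed at or below 0.297 CPM in all 6 libraries.

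**Figure D3:**
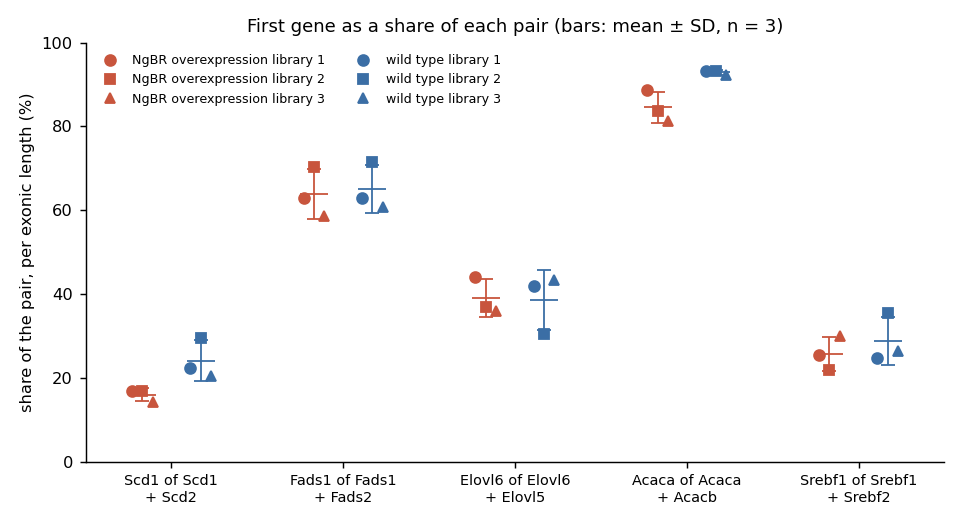
Share of the first-named gene in each of 5 pairs, per exonic length, by library, with NgBR-labelled libraries in red and wild-type libraries in blue and bars for mean ± SD (n = 3). Scd1 and Acaca have lower shares in all 3 NgBR-labelled libraries, and the other 3 shares overlap.

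The front-end desaturases lie side by side on chromosome 19. Fads1 (chr19:10182888-10196877, plus strand), the delta-5 desaturase, had 306, 495 and 221 CPM in NgBR-labelled libraries 1 to 3, against 290, 291 and 252 CPM in wild-type libraries 1 to 3. NgBR-labelled library 2 was far above the rest and NgBR-labelled library 3 below all, and the log2 fold change was 0.29 (SE 0.31, edgeR adjusted p = 0.837), with a 95% interval between 0.752-fold and 2.001-fold. Fads2 (chr19:10062765-10101746, minus strand), the delta-6 desaturase and the entry step to long polyunsaturated fatty acids, had 124, 143 and 107 CPM in NgBR-labelled libraries 1 to 3. Wild-type libraries 1 to 3 had 117, 79.5 and 112 CPM, a log2 change of 0.28 (SE 0.23, 95% interval -0.25 to 0.81, edgeR adjusted p = 0.772). Wild-type library 2 was the lowest of the 6. Fads1 made up 63.9 ± 5.96% of the pair per length in NgBR-labelled libraries and 65.1 ± 5.67% in wild-type libraries (exact permutation p = 0.7, SD, n = 3 each). In each group library 2 had the highest share, at 70.3% in the NgBR-labelled and 71.5% in the wild-type library.

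**Figure D4:**
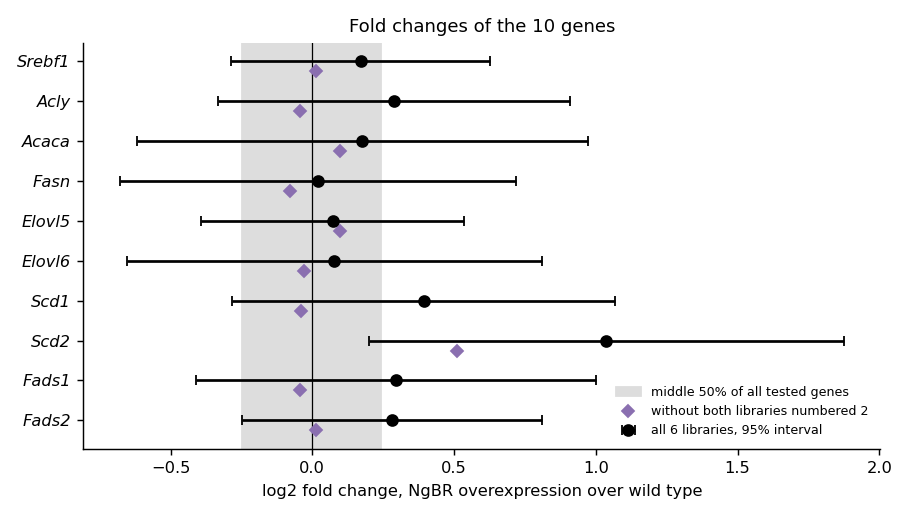
Log2 fold change of NgBR-labelled over wild-type libraries for the 10 genes (black, 95% interval from edgeR's quasi-likelihood fit) and without both libraries numbered 2 (purple diamonds). The grey band holds the middle 50% of all tested genes, between -0.25 and 0.24.

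The extreme values of the 10 genes often fell in the same few libraries. NgBR-labelled library 2 held the highest NgBR-labelled value for 7 of 10 genes and wild-type library 2 the lowest wild-type value for 7 of 10. NgBR-labelled library 3 was the lowest of its label for 8 of 10. The 10 genes together took 0.333%, 0.454% and 0.283% of all counts in NgBR-labelled libraries 1 to 3 and 0.271%, 0.197% and 0.266% in wild-type libraries 1 to 3. Their summed level was 3447, 4655 and 2729 CPM in NgBR-labelled libraries 1 to 3, against 2753, 1967 and 2581 CPM in wild-type libraries 1 to 3, and without Scd2 it was 1915, 2269 and 1282 CPM in NgBR-labelled libraries and 1706, 1441 and 1540 CPM in wild-type libraries. The groups overlapped on both sums, with NgBR-labelled library 3 below wild-type library 1 on the first and below all wild-type libraries on the second.

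The genes whose profile over the 6 libraries was nearest to that of a member were found by the root-mean-square difference of log2 CPM, centred on each gene's mean, among 9671 genes of at least 5 CPM. For Fasn they were Fbxl18, Itpripl1 and Capn15, at 0.083, 0.089 and 0.093. For Scd1 they were Zfp526, Epm2aip1 and Slco3a1, at 0.067, 0.069 and 0.069. Srebf1 was nearest to Zc3hav1l, Zc3h3 and Slc10a7, at 0.049, 0.051 and 0.054. No other member was among them.

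Around the 10 genes, 74 genes in 8 lists of neighbouring steps were examined, of which 73 were matched and 63 tested. edgeR's quasi-likelihood test called 0 higher and 1 lower, or 1 of 63 against 3.39% of all genes. At an unadjusted p under 0.05 in that test, 3 of the 63 were higher and 5 lower. Of all genes 11.4% were under it in either direction and 6.3% in the higher one. The CPM ranges of the groups were apart for 6 of the 63 higher and 6 lower, against 18.6% of all genes in either direction. The median log2 fold change of the 63 was -0.02, and 31 were positive and 32 negative. The 1 gene called was Agpat2, an acyltransferase of glycerolipid synthesis best known from adipocytes, named after its values were seen. It had 0 counts in each NgBR-labelled library, against 42, 16 and 20 counts in wild-type libraries 1 to 3, and was at least 7.37-fold lower, set against 3 counts over the group. Its edgeR adjusted p was 0.0492. The call was lost without NgBR-labelled libraries 1, 2 or 3 (0.126, 0.108 and 0.130), without both libraries numbered 2 (0.0967), with upper-quartile factors (0.0503) and among protein-coding genes alone (0.0552). Without any 1 wild-type library Agpat2 was below the filter, as it was in the thinned counts and at a minimum of 1 CPM in 3 libraries.

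Supply of carbon and NADPH had 0 of 8 tested genes called and a median log2 change of 0.14. Pgd, of the pentose phosphate pathway, had 193 ± 64.1 CPM in NgBR-labelled and 200 ± 64.6 CPM in wild-type libraries (SD, n = 3 each). Idh1, the cytosolic isocitrate dehydrogenase that makes NADPH, had 82.5, 96.3 and 84.8 CPM in NgBR-labelled libraries 1 to 3, against 148, 83.4 and 178 CPM in wild-type libraries 1 to 3. Its log2 change of -0.64 was not called (edgeR adjusted p = 0.448), and without both libraries numbered 2 it was -0.97 with adjusted p = 0.0304. Acss2, which makes acetyl-CoA from acetate and was named after its values were seen, had 12.3 ± 4.19 CPM in NgBR-labelled and 6.07 ± 2.66 CPM in wild-type libraries (log2 fold change 1.02, edgeR adjusted p = 0.311).

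Partners and regulators of the carboxylases had 0 of 8 called. Prkaa1, the catalytic subunit of the kinase AMPK that switches the carboxylases off, had 97.2 ± 4.83 CPM in NgBR-labelled and 87.1 ± 2.93 CPM in wild-type libraries (log2 fold change 0.16, edgeR adjusted p = 0.869), and Prkab1, another AMPK subunit, had 35.1 ± 1.92 CPM in NgBR-labelled and 39.4 ± 6.16 CPM in wild-type libraries. Of 8 other elongation genes tested, 0 were called. Tecr and Hsd17b12, which carry out later steps of the elongation cycle, had 117 ± 24.7 and 91.4 ± 12.8 CPM in NgBR-labelled libraries and 120 ± 43.3 and 104 ± 11.2 CPM in wild-type libraries. Elovl4, which makes very long chains and was named after its values were seen, had 1.82, 1.78 and 2.20 CPM in NgBR-labelled libraries 1 to 3, below the 4.27, 9.51 and 4.15 CPM of wild-type libraries 1 to 3. With a log2 change of -1.62 (SE 0.42) it missed the threshold at an edgeR adjusted p = 0.0831, and DESeq2 gave 0.0174.

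Desaturation partners had 0 of 5 called. Cyb5r3, the reductase that feeds electrons to desaturases through cytochrome b5, had 625 ± 148 CPM in NgBR-labelled and 579 ± 139 CPM in wild-type libraries. Degs1, the ceramide desaturase, had 94.1 ± 30.3 CPM in NgBR-labelled and 116 ± 12.9 CPM in wild-type libraries (SD, n = 3 each). Fads3, the neighbour of Fads2 on chromosome 19 and named after its values were seen, had 57.1, 65.7 and 55.8 CPM in NgBR-labelled libraries 1 to 3, against 75.6, 236 and 73.0 CPM in wild-type libraries 1 to 3. Wild-type library 2 set the size of its log2 fold change, which was -1.11 (edgeR adjusted p = 0.340) over all libraries and -0.32 without that library.

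Acyl-CoA synthetases had 0 of 7 called with a median log2 change of 0.02. Acsl4, which prefers arachidonate, had 211 ± 64.9 CPM in NgBR-labelled and 208 ± 23.7 CPM in wild-type libraries, and Acsl5 had 88.3 ± 35.0 CPM in NgBR-labelled and 78.1 ± 13.6 CPM in wild-type libraries (SD, n = 3 each). Control of SREBP cleavage and transcription had 0 of 12 called. Srebf2, the gene of the cholesterol-directed SREBP-2, had 273, 376 and 199 CPM in NgBR-labelled libraries 1 to 3, against 260, 138 and 252 CPM in wild-type libraries 1 to 3. A log2 change of 0.38 over all libraries became -0.12 without both numbered 2. Mbtps1, the site-1 protease that cuts SREBPs, had 228 ± 9.15 CPM in NgBR-labelled and 221 ± 1.64 CPM in wild-type libraries (log2 fold change 0.04, edgeR adjusted p = 0.980). Mlxipl, which encodes the carbohydrate-responsive factor ChREBP, had 0 counts in all 6 libraries and was also chosen with its values known.

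Mitochondrial fatty acid synthesis had 0 of 5 called, and Ndufab1, its acyl carrier protein, had 44.7 ± 17.9 CPM in NgBR-labelled and 40.8 ± 4.83 CPM in wild-type libraries. Mcat, its malonyl transferase, had 23.8 ± 7.71 CPM in NgBR-labelled and 24.2 ± 0.917 CPM in wild-type libraries. Of the other 9 tested glycerolipid genes 0 were called. Agpat1 had 108, 78.2 and 77.4 CPM in NgBR-labelled libraries 1 to 3, against 149, 124 and 132 CPM in wild-type libraries 1 to 3. Its groups did not overlap, which was so for 18.6% of all genes tested in either direction. The log2 change of Agpat1 was -0.62 (SE 0.22), with an edgeR adjusted p = 0.273. Agpat3 had 87.2 ± 21.6 CPM in NgBR-labelled and 96.6 ± 20.9 CPM in wild-type libraries (SD, n = 3 each).

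**Figure D5:**
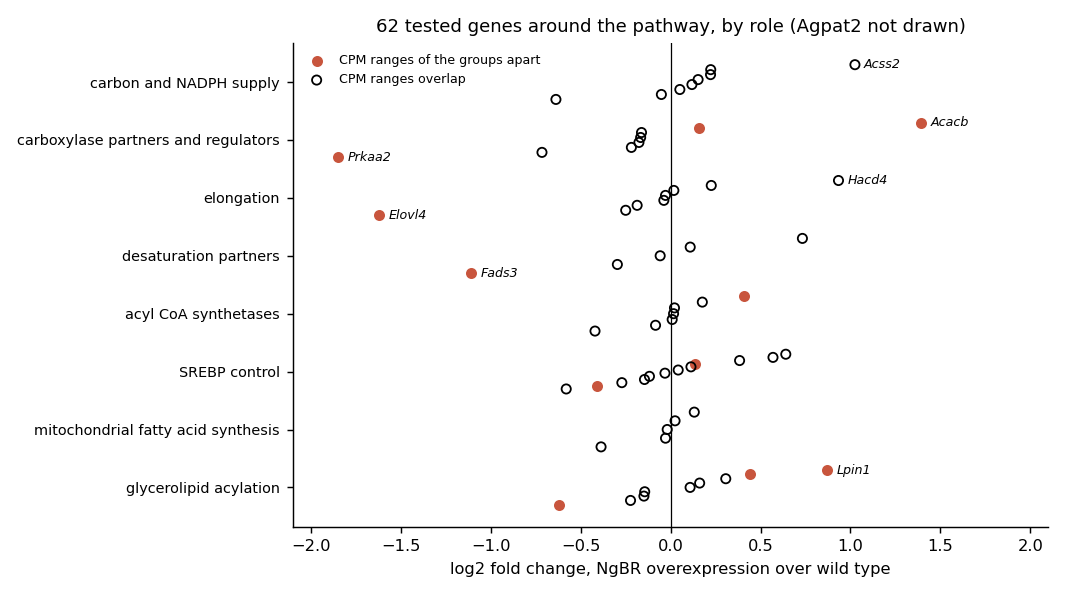
Log2 fold change of NgBR-labelled over wild-type libraries for 62 of the 63 tested pathway genes, one row per role, filled where the CPM ranges of the groups do not overlap. Over all genes tested, the ranges did not overlap for 18.6%. Most points lie near 0, with Acacb at 1.39, Elovl4 at -1.62 and Prkaa2 at -1.85 farthest out (-1.25 for Prkaa2 without both libraries numbered 2). Agpat2 is not drawn.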

How the data were processed

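The authors deposited raw counts per gene, not normalized. Per the submitters' processing notes, HISAT2 2.0.5, featureCounts 1.5.0-p3 and DESeq2 were used with build mm10. No source used here gives the annotation release, the strand setting or the species of the NgBR sequence. Per the labels' protocols, 1.5 micrograms of total RNA entered a SMARTer mRNA-seq preparation.

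edgeR 4.0.16 in R 4.3.3 tested all 12651 genes kept by filterByExpr (quasi-likelihood F test, TMM factors, no covariate, adjusted p under 0.05 by Benjamini-Hochberg). Groups were taken from the titles. Intervals of fold changes are at 95%. GENCODE M21 of the same assembly gave positions and lengths for 97.8% of the identifiers. Promoters are from RefSeq. Shares within pairs were tested by exact permutation. The edgeR, limma-voom and DESeq2 fits were checked on simulated data, and the permutation test was not. The simulated counts held no effect of exonic length and none shared by libraries of the same number. Members and lists were chosen with earlier results of these data known. Genes named beyond the members were the called members of a list above 1 CPM (up to 4), or else its 2 most abundant members, the 3 genes of nearest profile to Fasn, Scd1 and Srebf1, and those marked as named after their values were seen; markers and genes that share sequence or exons with a member are named as such. Alternatives were DESeq2 1.42.0, limma-voom (limma 3.58.1), other factors and filters, thinning, length and GC offsets, a replicate block, protein-coding genes only, and libraries left out. The bound for Agpat2 covers counting error only, and no source used here names molecular identifiers. A comparison of protein sequences was not made.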

Additional observations from a re-analysis of the deposited data

How the results depend on the processing

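No member was called under any of the 19 alternatives to the fit (0 of 10 in each). Over all genes, 429 calls (258 higher, 171 lower) became 715 (451 and 264) with DESeq2 and 688 (302 lower) with no filter on low counts. Calls of lower genes were 263 without both libraries numbered 2. Leaving out 1 library at a time gave between 225 and 374 calls, between 141 and 209 higher and between 84 and 165 lower. Libraries of the same number were not shown to be paired, since their deviations correlated at 0.0147, 0.34 and 0.43 for numbers 1, 2 and 3. NgBR-labelled library 1 matched wild-type library 3 best, while NgBR-labelled libraries 2 and 3 each matched the wild-type library of the same number best. With the replicate block 719 genes were called (418 higher, 301 lower). Between 60 and 70 pathway genes were tested, depending on the setting, and the count called higher was 1 with DESeq2, upper-quartile factors, the replicate block, thinning to the shallowest library, and length and GC offsets, it was 2 with no filter on low counts and without both libraries numbered 2, and it lay between 0 and 1 with 1 library left out. Acacb was the gene called higher in each setting named except without NgBR-labelled library 2, where it was Pparg, and Pparg was the other one where 2 were called. The count called lower was 2 with DESeq2, no filter on low counts and the replicate block, and 0 with upper-quartile factors, a minimum of 1 CPM in 3 libraries, thinning, protein-coding genes only and 1 library left out. With limma-voom, the log2 fold change turned sign for Fasn (-0.035), Tecr (0.037) and Acsl4 (-0.0199). With no composition factors, the sign turned for Fasn (-0.0086) and Acsl4 (-0.0053). With no filter on low counts, the sign turned for Fasn (-0.031), Acsl4 (-0.0304) and Mbtps1 (-0.0076). With the replicate block, the sign turned for Fasn (-0.046), Tecr (0.029) and Acsl4 (-0.018). With length and GC offsets, the sign turned for Fasn (-0.012) and Tecr (0.016). Without both libraries numbered 2, the sign turned for Fasn (-0.079), Acly (-0.043), Scd1 (-0.041), Elovl6 (-0.028), Fads1 (-0.044), Acsl4 (-0.14), Srebf2 (-0.12) and Mcat (0.23). With counts thinned to the shallowest library, the sign turned for Tecr (0.011). With 1 library left out in turn, log2 fold changes spanned 0 for Fasn (-0.22 to 0.28), Acaca (-0.083 to 0.49), Elovl6 (-0.21 to 0.25), Elovl5 (-0.028 to 0.16), Fads1 (-0.083 to 0.53), Pgd (-0.31 to 0.17), Tecr (-0.30 to 0.17), Cyb5r3 (-0.077 to 0.27), Acsl4 (-0.23 to 0.23), Acsl5 (-0.11 to 0.45), Ndufab1 (-0.24 to 0.34) and Mcat (-0.27 to 0.20). Differences in share spanned 0 for Fads1 (-4.38 to 2.05 points), Elovl6 (-3.63 to 2.83 points) and Srebf1 (-5.23 to 0.163 points). The cause was not tested for any of these. Wild-type libraries were deeper than NgBR-labelled ones, so depth and group cannot be told apart. Thinning to the shallowest library also called 0 of 10.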

Other observations

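Pparg, the master regulator of fat cell formation and one of the genes examined around SREBP, was below the filter on low counts. It had 15, 0 and 10 counts in NgBR-labelled libraries 1 to 3 and 0, 0 and 3 counts in wild-type libraries 1 to 3. With no filter on low counts edgeR called it higher (adjusted p = 0.0149), as it did without NgBR-labelled library 2 (0.0369) and without both libraries numbered 2 (0.0360), where it passed the filter. NgBR-labelled library 2 had 0 counts, as did wild-type libraries 1 and 2, so that the groups overlapped. Fabp4, a target of its product in fat cells, had 0.842, 1.88 and 1.72 CPM in NgBR-labelled libraries 1 to 3, against 1.35, 1.25 and 1.72 CPM in wild-type libraries 1 to 3, and the groups overlapped. Lpin1, a phosphatidate phosphatase that SREBPs induce, had 26.4, 66.3 and 26.9 CPM in NgBR-labelled libraries 1 to 3 and 25.5, 19.05 and 20.95 CPM in wild-type libraries 1 to 3. Its log2 change of 0.87 (edgeR adjusted p = 0.396) was 0.20 without both libraries numbered 2. Insig1, the sterol-sensing anchor of SREBPs, had 38.9, 58.7 and 47.4 CPM in NgBR-labelled libraries 1 to 3 and 35.9, 15.2 and 41.9 CPM in wild-type libraries 1 to 3, a log2 change of 0.64 (edgeR adjusted p = 0.592) that was 0.15 without both libraries numbered 2. Prkaa2, the other AMPK catalytic subunit, had 0.421, 0.693 and 0.287 CPM in NgBR-labelled libraries 1 to 3, against 0.859, 3.48 and 0.783 CPM in wild-type libraries 1 to 3. Wild-type library 2 was far above the rest, and the log2 change of -1.85 (edgeR adjusted p = 0.372) was -1.25 without both libraries numbered 2. These genes were named after their values were seen.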
